A study of Rattus norvegicus with 96 samples.

Results

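Gene expression in the central nucleus of the amygdala (CeA) of alcohol-drinking rats was compared between 6 h and 1 h after the last drinking episode. The arrays were chosen by their titles alone, as the CeA arrays of ethanol rats labelled 6 h (10 arrays) and 1 h (11 arrays), 21 of the 96 arrays of the series. All rats were alcohol-preferring (P) rats, a line bred for high voluntary ethanol intake, and the drinkers had limited access to ethanol, which the series title calls binge drinking. Each array was made from 25 ng of total RNA amplified in 2 cycles and hybridised to an Affymetrix rat array, and values are log2 expression after RMA (background correction, quantile normalization and a summary per probe set). Beside them stood CeA arrays of drinkers at 24 h (10 arrays), of water rats without ethanol at 6 h (5 arrays) and 1 h (6 arrays), and, from the nucleus accumbens shell (NAc shell), arrays of drinkers at 6 h and 1 h (10 arrays each). The labels give hours since the last episode and not the clock hour, so time since drinking and time of day cannot be told apart. Age and sex are not given in the sources used here. Nothing in the labels says that each array is a separate rat, so p-values measure only the spread between these arrays.

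The CeA is the output nucleus of the amygdala, built mostly of inhibitory (GABA) projection neurons, and it is studied for its part in anxiety, stress and alcohol intake. Almost every cell of the brain also runs a circadian clock: BMAL1 and CLOCK activate the Per and Cry genes, the REV-ERB genes Nr1d1 and Nr1d2, and Dbp through E-box elements, PER and CRY proteins repress BMAL1 and CLOCK, and REV-ERB proteins repress Bmal1. Glucocorticoid hormone, which has a daily rhythm and is released by stress, induces a further set of genes that includes Sgk1, Fkbp5, Klf9 and Per1.

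Marker genes of the labelled tissue were measured. Of 16 markers of CeA neurons, 14 passed the filter on low values, among them Gad1 (mean log2 value 14.4 over all CeA arrays), Penk (13.7), Pdyn (11.9), Sst (11.6) and Prkcd (9.7). The mean level of these 14 was 10.3 to 11.5 at 6 h and 10.3 to 11.5 at 1 h. Markers of neighbouring tissue were present as well, with striatal Drd1 at 11.3 and Slc17a6, of thalamic and hypothalamic neurons, at 10.1. Array medians ran from 7.68 to 7.82 over the 48 CeA arrays. The signal of Gapdh at its 3 prime end minus that at its 5 prime end, a difference that grows when RNA is broken, was 2.95 (SD 0.55, n = 10) at 6 h and 2.96 (SD 0.57, n = 11) at 1 h (permutation p = 0.979, adjusted over 3 such measures 0.979). By their correlation with the other CeA arrays 4 stood low, 1 of the drinkers at 6 h, 1 of the drinkers at 1 h and 2 of the water rats at 6 h. The title numbers of the CeA ethanol arrays fall into 4 runs, in each of which the time labels start again at 1 h. Water arrays are numbered apart, and were placed in runs 1 to 4 by the order of their own time labels. That these match the runs of ethanol arrays is an assumption, and what a run stands for is not stated. The Gapdh end difference varied by run among drinkers at 6 h and 1 h. It was 2.29 to 2.64 in runs 1 and 2, 3.35 to 3.69 in run 3 and 2.33 to 3.75 in run 4. Runs 1 to 4 held 1, 3, 4 and 2 drinkers at 6 h, and 2, 3, 3 and 3 drinkers at 1 h. They held 1, 1, 1 and 2 water rats at 6 h, and 1, 2, 3 and 0 water rats at 1 h, and both water arrays of run 4 are low-correlation arrays. Without the block, time and run are therefore mixed in the values of water rats and in the comparisons with them. Results are given without and with the run as a block in the fit.

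In the CeA of drinkers few genes differed between 6 h and 1 h, and those of the clock that did were lower at 6 h. The nuclear receptors Nr1d1 and Nr1d2, whose proteins repress Bmal1, fell, as did 3 probe sets without a gene symbol, while Mmp14, a membrane-bound matrix metalloprotease, rose. With runs as a block, Dbp, a clock-controlled transcription factor, and Lrig1, a membrane protein that restrains growth factor receptors, fell as well, and Klhdc7a, a kelch-domain gene, rose. The moderated test of limma, with Benjamini-Hochberg adjustment over 18625 probe sets and adjusted p under 0.05 as the threshold, called 6 probe sets (0.0322%), 1 higher and 5 lower (0.0268%) at 6 h. With the run block it called 12 (0.0644%), 3 higher and 9 lower (0.0483%), and all of the 6 were among the 12. The same 6 were called without the 4 low-correlation arrays. Over all probe sets the median difference was -0.01 log2. Only 3 probe sets (0.0161%) had 6 h and 1 h arrays that did not overlap: Nr1d1, Nr1d2 and 1390223_at, all lower at 6 h.

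Nr1d1 (1370816_at) encodes REV-ERB alpha, a haem-binding repressor of Bmal1. In drinkers its lowest, median and highest log2 values were 7.86, 8.13 and 8.43 at 6 h, against 8.47, 8.55 and 8.84 at 1 h. Every 6 h array lay below every 1 h array. The difference was -0.48 ± 0.08 log2 (SE, limma adjusted p = 0.00388), so that the 6 h level was 71.9% of the 1 h level. Within runs 1 to 4 it was -0.21, -0.54, -0.42 and -0.68. The call was lost when the arrays of run 2, run 3 or run 4 were left out, and held without run 1.

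Nr1d2 (1390430_at) encodes REV-ERB beta, the close relative of Nr1d1. Its lowest, median and highest values were 12.20, 12.34 and 12.49 at 6 h, against 12.49, 12.66 and 12.76 at 1 h. The groups touch at 12.49 to 2 decimals and do not overlap. The difference was -0.32 ± 0.06 log2 (limma adjusted p = 0.00955; 79.9% of the 1 h level) and -0.34 ± 0.05 with the run block. It was negative in each of the 4 runs, at -0.46, -0.35, -0.27 and -0.34, and the call was lost without any 1 of them. The other tested probe set of the gene, 1370541_at, read -0.16, and 1370540_at had mean values of 4.64 at 6 h and 4.73 at 1 h, under the filter.

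Dbp (1387874_at) encodes a transcription factor that binds D-box elements and is itself switched on through E-boxes. Its lowest, median and highest values were 9.04, 9.55 and 10.20 at 6 h, against 9.73, 9.96 and 10.68 at 1 h. The groups overlap, with 7 of the 10 arrays at 6 h below all 1 h arrays. The difference was -0.49 ± 0.09 log2 with the run block (limma adjusted p = 0.00543), and -0.52 ± 0.16 without it (adjusted p = 1.00). Within runs 1 to 4 it was -0.29, -0.51, -0.35 and -0.77.

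Promoters are shown for Nr1d1, Nr1d2, Bhlhe41 and Sgk1, the clock and glucocorticoid-induced genes with the smallest p values in the fit without the run block, because clock factors act there. With the block, Dbp and Per3 had smaller p values than Bhlhe41 and Sgk1. RefSeq lists 2, 1, 1 and 3 of them on the rat build GRCr8, each from 250 bases before to 50 after a transcription start. Both strands were searched for the E-box CACGTG, the D-box TTATGNAA, the ROR/REV-ERB half-site AGGTCA and the glucocorticoid receptor half-site TGTTCT, none of which overlapped another in these windows. The 3 windows with a match are printed 5′ to 3′ along the gene, with the match in capitals. One of the Nr1d1 promoters (chr10:84229405-84229704, minus strand) and the Bhlhe41 promoter (chr4:180569306-180569605, minus strand) each held an E-box, and the Nr1d2 promoter (chr15:9954784-9955083, plus strand) held AGGTCA.
Nr1d1: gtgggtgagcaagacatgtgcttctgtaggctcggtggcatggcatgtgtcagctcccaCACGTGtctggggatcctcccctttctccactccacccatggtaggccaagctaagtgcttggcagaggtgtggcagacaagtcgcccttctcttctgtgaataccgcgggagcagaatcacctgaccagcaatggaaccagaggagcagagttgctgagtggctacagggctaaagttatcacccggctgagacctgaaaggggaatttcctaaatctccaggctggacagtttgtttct
Bhlhe41: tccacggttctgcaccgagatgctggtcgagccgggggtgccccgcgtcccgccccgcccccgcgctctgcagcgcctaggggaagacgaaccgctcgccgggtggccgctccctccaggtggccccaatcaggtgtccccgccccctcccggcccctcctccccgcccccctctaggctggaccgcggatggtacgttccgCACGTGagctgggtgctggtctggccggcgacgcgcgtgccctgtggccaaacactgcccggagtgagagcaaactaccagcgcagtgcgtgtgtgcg
Nr1d2: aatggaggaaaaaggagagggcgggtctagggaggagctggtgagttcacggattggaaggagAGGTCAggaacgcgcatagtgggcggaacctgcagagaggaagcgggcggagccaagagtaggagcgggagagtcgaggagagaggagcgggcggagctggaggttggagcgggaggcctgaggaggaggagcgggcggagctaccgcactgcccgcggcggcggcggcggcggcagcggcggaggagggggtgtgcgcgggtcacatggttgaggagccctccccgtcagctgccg
The E-boxes start 191 bases before the Nr1d1 start site and 48 bases before that of Bhlhe41, and AGGTCA starts 187 bases before that of Nr1d2. Of 33469 rat promoters of this length, 6.42% held the E-box, 3.66% the D-box, 16.2% AGGTCA and 20.7% TGTTCT. The other Nr1d1 promoter and the 3 promoters of Sgk1 held none of these letters. A match is a run of letters and not a measured binding site.

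**Figure D1:**
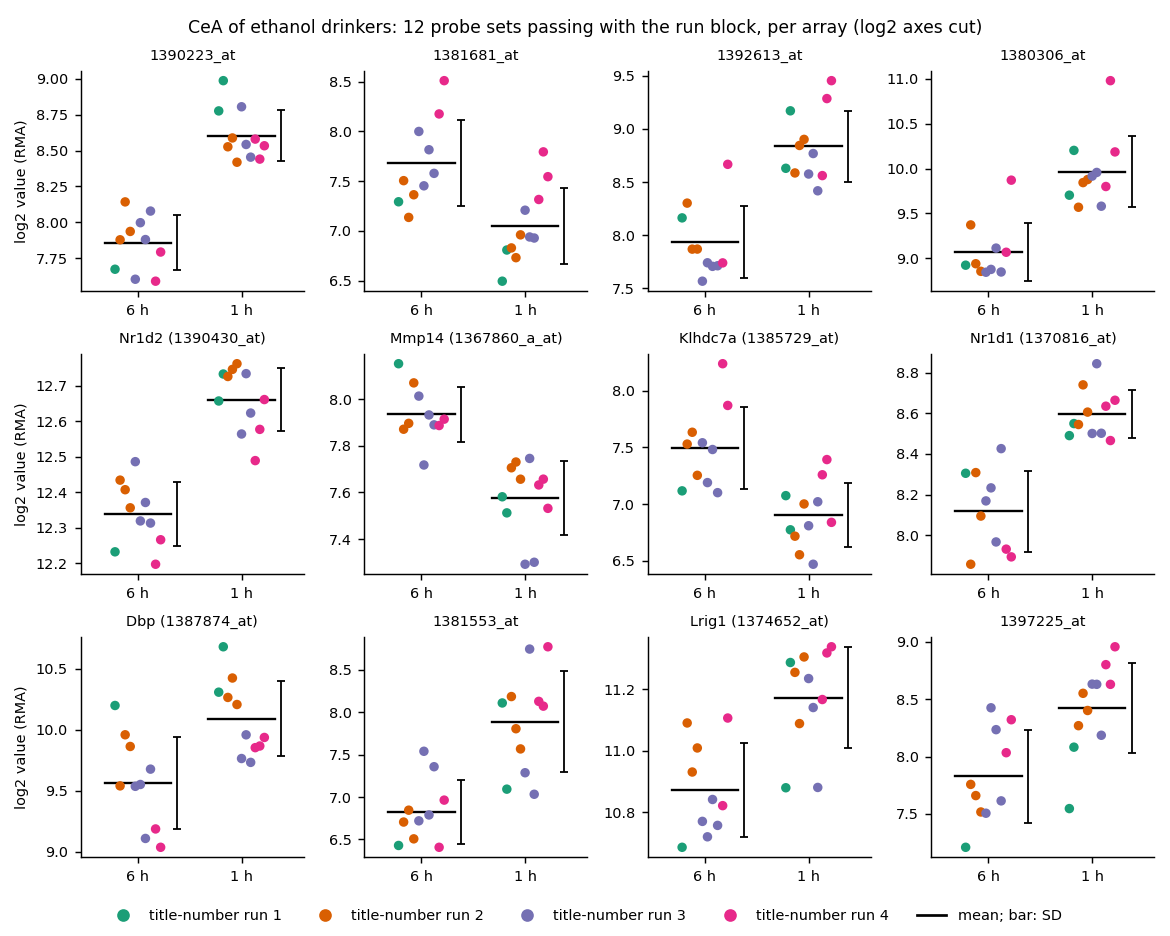
Log2 values of each drinker's CeA array at 6 h (left) and 1 h (right) for the 12 probe sets that passed with the run block, with dots coloured by title-number run, a line at the mean and a bar for the SD. Nr1d1, Nr1d2 and 1390223_at show no overlap between the times, and within a run the 6 h arrays of Dbp lie lower on average in all 4 runs.

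Other clock genes had smaller differences. Per3 (1378745_at), a member of the period family of repressors, had lowest, median and highest values of 8.71, 9.15 and 9.31 at 6 h, against 8.93, 9.49 and 10.04 at 1 h. All 10 of the 6 h arrays were below the 1 h median, although the groups overlap. The difference was -0.36 ± 0.11 log2 (limma adjusted p = 1.00) and -0.37 ± 0.08 with the run block (adjusted p = 0.0835), neither past the threshold. Bhlhe41 (1368511_at), which encodes a repressor that competes at E-boxes, read 12.91, 13.03 and 13.15 at 6 h, against 13.03, 13.22 and 13.28 at 1 h. Of the 10 arrays at 6 h, 5 lay below all 1 h arrays. The difference was -0.15 ± 0.04 log2 (limma adjusted p = 0.456, with the block 0.0835). Per1 (1374855_at), which responds to both the clock and glucocorticoid, read 8.79, 9.10 and 9.46 at 6 h, against 9.21, 9.37 and 9.96 at 1 h, a difference of -0.31 ± 0.11. Its paralog Per2 (1368303_at) had -0.20 ± 0.11, and its second probe set 1378560_at read 0.02.

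In the CeA of drinkers the activators Bmal1 and Clock had the other sign, with small differences. Bmal1 (1370510_a_at) had lowest, median and highest values of 7.52, 7.78 and 8.46 at 6 h, against 7.04, 7.69 and 7.94 at 1 h. The groups overlapped widely, with 4 of the 6 h arrays above all 1 h arrays. The difference was 0.25 ± 0.13 log2 (limma unadjusted p = 0.0531) and 0.23 ± 0.11 with the block (unadjusted p = 0.0341), and it did not pass after adjustment. Clock (1389456_at) had 0.11 ± 0.07, its second tested probe set 1390199_at 0.04, and Npas2, a relative of Clock, 0.25 ± 0.33. In water rats Bmal1 was at -0.07 ± 0.17 and Clock at -0.06 ± 0.10, and with the block at 0.08 ± 0.15 and 0.05 ± 0.07. In the NAc shell of drinkers Bmal1 was at 0.06 ± 0.08 and Clock at -0.06 ± 0.06.

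Over the list of 23 clock and clock-output genes, 20 were tested and 15 of these were below 0, with a median of -0.13 log2 against -0.01 over all probe sets. Adjusted over all probe sets, 2 of the 20 were called lower and 0 higher, and with the run block 3 lower and 0 higher. At an unadjusted p under 0.05, 6 were lower and 0 higher, where 1.05% of all probe sets were lower, and with the block 8 were lower and 2 higher, where 2.25% of all were lower. The list was drawn up with earlier results of these arrays known. The remaining members lay between -0.15 (Rora) and 0.08 (Csnk1e), with Tef, a D-box factor like Dbp, at -0.13, Cry1 at -0.07, Cry2 at -0.03 and Nfil3 at 0.00.

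**Figure D2:**
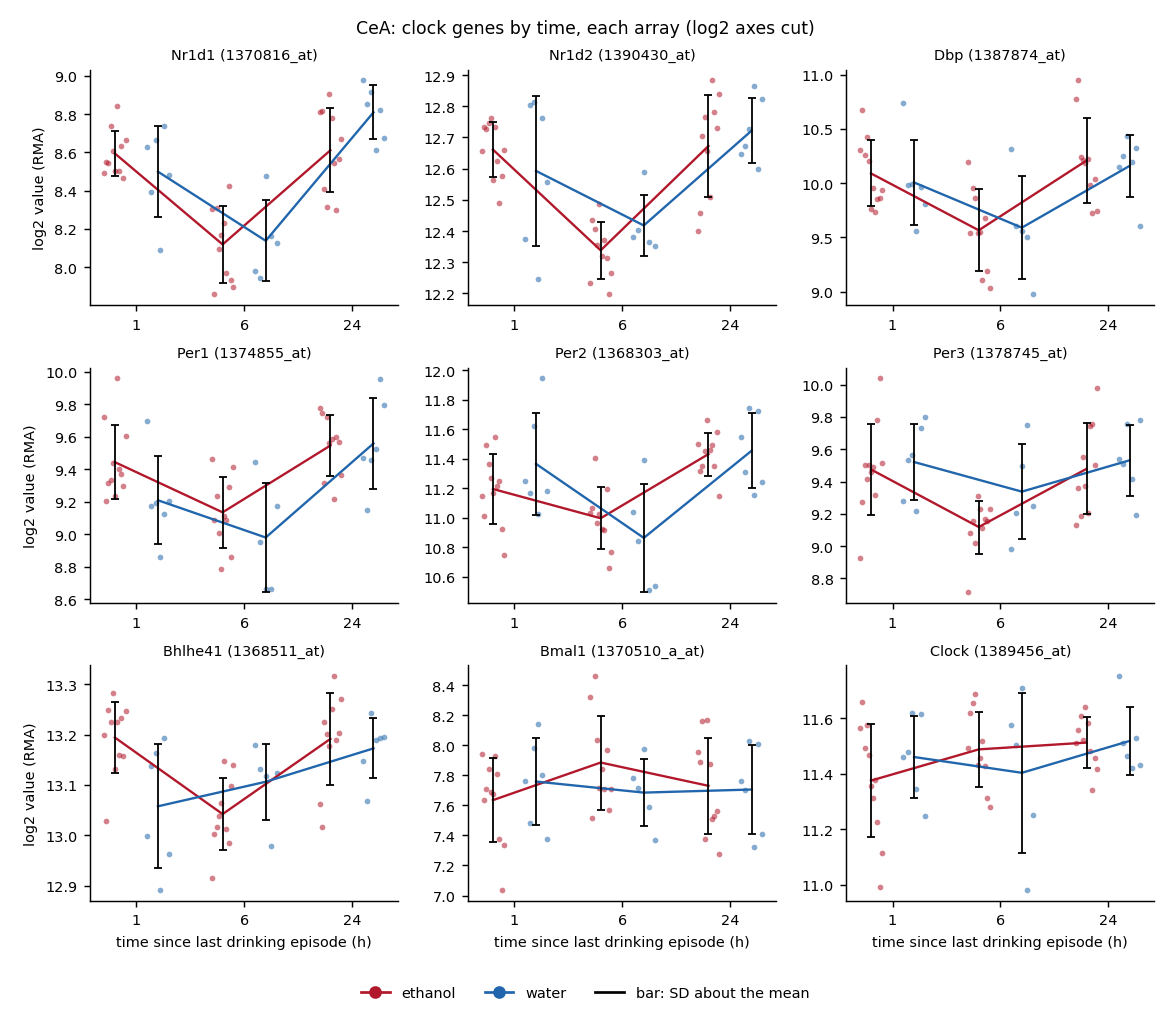
Log2 values of 9 clock genes in the CeA at 1, 6 and 24 h after the last episode (evenly spaced categories), ethanol in red and water in blue, 1 dot per array, lines through the means and bars for the SD. In drinkers the means of Nr1d1, Nr1d2, Dbp and Per3 are lowest at 6 h and lie at 24 h within 0.12 of those at 1 h.

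At 24 h several clock genes of drinkers stood near their 1 h levels. The 24 h mean minus the 1 h mean was 0.02 log2 for Nr1d1, 0.01 for Nr1d2, 0.00 for Per3 and 0.00 for Bhlhe41. Higher at 24 h than at 1 h were the means of Per2, by 0.24, Clock, by 0.14, Dbp, by 0.12, Per1, by 0.10, and Bmal1, by 0.10. Mean Nr1d1 values were 8.59 (SD 0.12, n = 11) at 1 h, 8.12 (SD 0.20, n = 10) at 6 h and 8.61 (SD 0.22, n = 10) at 24 h, lowest at 6 h. These 24 h differences were not tested here.

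The lowest p value belonged to 1390223_at, which has no gene symbol in the annotation, as is the case for the other 5 probe sets given by identifier. They were chosen for description after their values were seen. In drinkers 1390223_at read 7.59, 7.88 and 8.14 (lowest, median, highest) at 6 h, against 8.42, 8.54 and 8.99 at 1 h. The groups do not overlap. The difference was -0.75 ± 0.09 log2 (limma adjusted p = 3.59e-06; 59.6% of the 1 h level), and the probe set was called in each of the fits that left out a run. At 24 h its mean was 0.06 below the 1 h mean.

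The probe sets 1392613_at and 1380306_at moved by nearly the same amount. The first read 7.57, 7.80 and 8.67 at 6 h, against 8.42, 8.77 and 9.46 at 1 h, and differed by -0.90 ± 0.15 log2 (limma adjusted p = 0.00111). The second read 8.85, 8.93 and 9.87 at 6 h, against 9.57, 9.88 and 10.98 at 1 h, and differed by -0.89 ± 0.15 (limma adjusted p = 0.00111). For each of them 9 of 10 arrays at 6 h lay below all 1 h arrays, and the same holds in the plot of single arrays, where 1 array of run 4 at 6 h, a low-correlation array, overlaps the 1 h group. At 24 h they stood between the other times, 0.35 and 0.30 below the 1 h means. Both calls were lost without the arrays of run 2 or run 3.

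Mmp14 (1367860_a_at), which cleaves collagen and activates other matrix metalloproteases at the cell surface, was the named gene that rose without the block. It read 7.72, 7.91 and 8.15 at 6 h, against 7.29, 7.63 and 7.75 at 1 h. All but 1 of the 6 h arrays (9 of 10) exceeded every 1 h array. The difference was 0.36 ± 0.07 log2 (limma adjusted p = 0.00955; 128% of the 1 h level), and 0.61, 0.25, 0.44 and 0.29 in the runs. At 24 h its mean was 0.09 above that at 1 h. The other probe set of the gene, 1378225_at, was under the filter, with means of 5.53 at 6 h and 5.51 at 1 h. Without the arrays of 1 run, whichever run it was, the adjusted p of Mmp14 no longer passed.

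Klhdc7a (1385729_at) read 7.10, 7.51 and 8.24 at 6 h, against 6.47, 6.84 and 7.39 at 1 h. All 10 arrays at 6 h lay above the 1 h median and 6 above all 1 h arrays. The difference was 0.63 ± 0.11 log2 with the block (limma adjusted p = 0.00199) and 0.59 ± 0.13 without it (adjusted p = 0.0678). The unnamed 1381681_at was higher by 0.66 ± 0.09 with the block (adjusted p = 9.55e-05), with values of 7.14, 7.54 and 8.51 at 6 h, against 6.50, 6.94 and 7.79 at 1 h. Both were positive in each of the 4 runs.

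Lrig1 (1374652_at) read 10.69, 10.83 and 11.11 at 6 h, against 10.88, 11.23 and 11.34 at 1 h. The ranges overlap, and 6 arrays at 6 h lay below all 1 h arrays. The difference was -0.30 ± 0.06 log2 with the block (limma adjusted p = 0.0376) and -0.30 ± 0.08 without it (adjusted p = 0.591). Also lower with the block were 1381553_at, by -1.10 ± 0.23 (adjusted p = 0.0307), and 1397225_at, by -0.62 ± 0.13 (adjusted p = 0.0427). For 1381553_at the values were 6.41, 6.75 and 7.54 at 6 h, against 7.03, 8.07 and 8.77 at 1 h, and its 24 h mean was 0.86 above the 1 h mean. For 1397225_at they were 7.21, 7.71 and 8.42 at 6 h, against 7.55, 8.55 and 8.96 at 1 h.

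Further named genes with small p values did not pass. On the higher side these were Nsd3, a histone methyltransferase (0.19 ± 0.05), Drg1, a GTP-binding protein (0.41 ± 0.11), Tnfrsf11b, the decoy receptor osteoprotegerin (0.40 ± 0.11), and Zfp36l1, which speeds the decay of AU-rich mRNAs (0.25 ± 0.07). On the lower side they were Klf2, a transcription factor of endothelium and lymphocytes (-0.46 ± 0.12), Eva1a (-0.44 ± 0.11), Pop1 of the RNase P and MRP complexes (-0.26 ± 0.07), Slc16a12, a creatine transporter (-0.40 ± 0.11), and Nt5e, the enzyme that makes extracellular adenosine (-0.47 ± 0.13). Their limma adjusted p values were 0.456 to 0.878.

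Most genes induced by glucocorticoid had lower means at 6 h than at 1 h, and none passed the test. Of 24 listed genes 20 were tested, and 16 of these were below 0, with a median of -0.28 log2 (-0.30 with the run block) against -0.01 over all probe sets. Adjusted over all probe sets 0 were called in either fit. At an unadjusted p under 0.05 there were 9 lower and 0 higher, where 1.05% of all probe sets were lower, and with the block 11 lower and 0 higher, where 2.25% of all were lower. This list, too, was drawn up with earlier results known.

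Sgk1 (1367802_at), a kinase of ion transport and a direct target of the glucocorticoid receptor, had lowest, median and highest values of 11.30, 12.08 and 12.81 at 6 h, against 11.93, 12.87 and 13.34 at 1 h. All 10 arrays at 6 h lay below the 1 h median, with overlap of the ranges. The difference was -0.73 ± 0.18 log2 (limma adjusted p = 0.456, with the block 0.0902; 60.2% of the 1 h level). Its 24 h mean was 0.39 above the 1 h mean.

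Metabolic members had differences of like size. Pdk4 (1378074_at), the kinase that shuts pyruvate out of mitochondria, read 7.52, 8.62 and 9.48 at 6 h, against 8.83, 9.34 and 10.44 at 1 h, a difference of -0.88 ± 0.31. Gpd1 (1371363_at), glycerol-3-phosphate dehydrogenase of oligodendrocytes and other cells, read 10.33, 11.19 and 12.16 at 6 h, against 11.33, 11.87 and 13.16 at 1 h, a difference of -0.72 ± 0.27. In both genes 1 h arrays lay highest and the ranges overlapped, with SDs of 0.60 and 0.65 at 6 h, against 0.56 and 0.58 at 1 h. Gpd1 varied between runs, with -1.51 in run 1 and -0.22 in run 3.

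Regulators on the list followed the same sign. Nfkbia (1389538_at), the inhibitor of NF-kappaB, had -0.40 ± 0.13 log2, and 6 of 10 arrays at 6 h lay below all 1 h arrays. Klf15 (1368249_at), a transcription factor of fasting metabolism, had -0.36 ± 0.11, also with 6 of 10 arrays below all 1 h arrays. Klf9 (1370209_at), of the same family and a brake on cell growth, had -0.30 ± 0.10, and Bcl6 (1379368_at), a transcriptional repressor, -0.20 ± 0.11. Dusp1 (1368146_at), the phosphatase that turns off p38 and JNK, had -0.37 ± 0.13. Ddit4 (1368025_at), an inhibitor of mTORC1, and Arrdc2 (1383608_at), an arrestin-domain protein, each had -0.45, with SEs of 0.18 and 0.22. Fkbp5 (1388901_at), the co-chaperone that lowers receptor sensitivity, had -0.26 ± 0.13, and its second probe set 1380611_at -0.15. Above 0 stood Sult1a1, a sulfotransferase (0.19), Fam107a (0.17), Gjb6 (0.07) and Angptl4 (0.04).

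**Figure D3:**
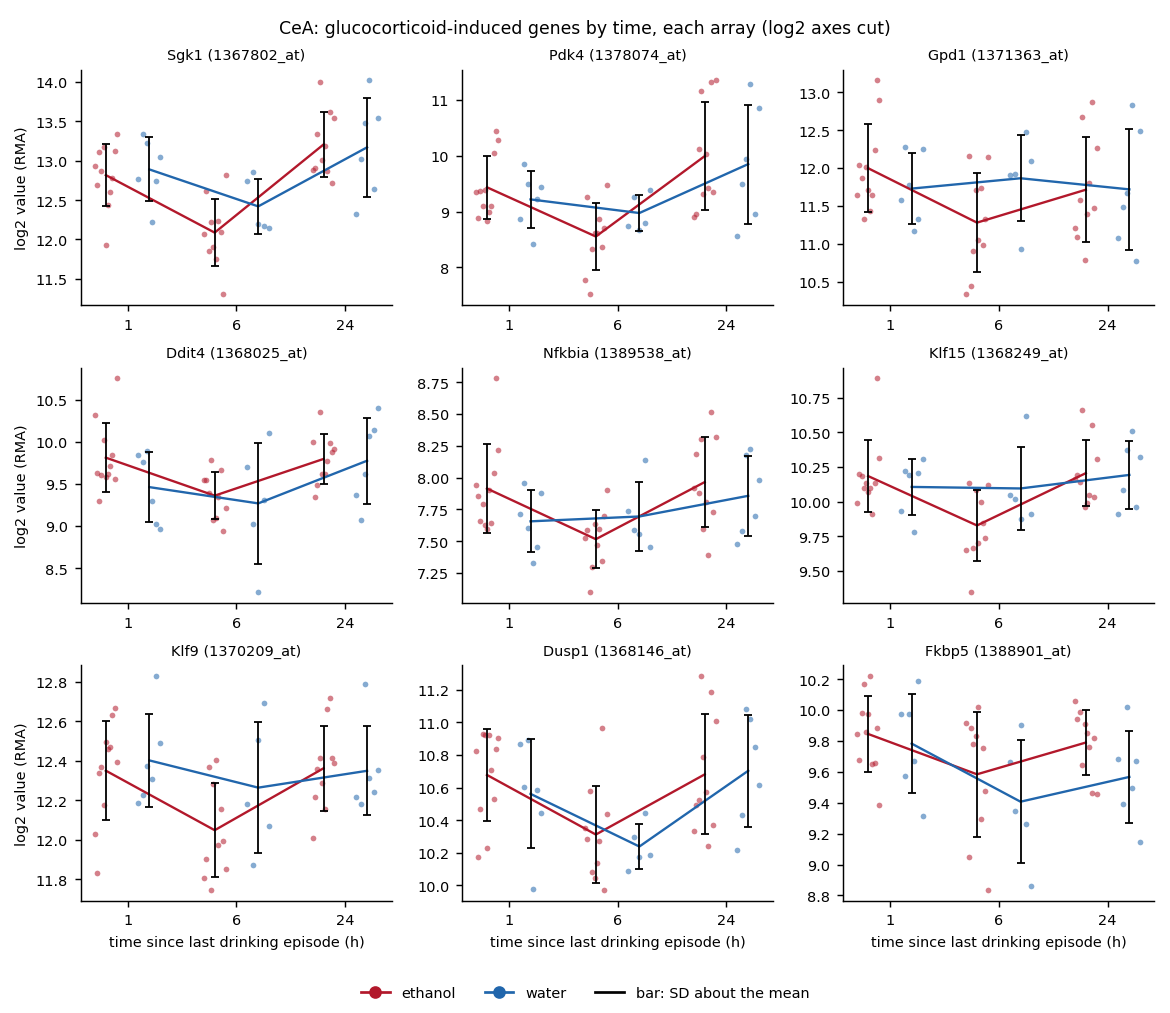
Log2 values of 9 glucocorticoid-induced genes in the CeA at 1, 6 and 24 h (evenly spaced categories), ethanol in red and water in blue, 1 dot per array, lines through the means and bars for the SD. In drinkers each of the 9 has its lowest mean at 6 h, with overlapping arrays.

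The time difference was set against that of water rats, which asks whether it belongs to drinking. In water rats limma called 0 of 18625 (0%). An unadjusted p under 0.05 was reached by 847 (308 with the run block, which also called 0). Of those 847, 566 were higher and 281 lower at 6 h. Nr1d1 in water rats was at 7.94, 7.98, 8.13, 8.16 and 8.48 at 6 h, against a range of 8.09 to 8.74 and a median of 8.56 at 1 h. The difference, -0.36 ± 0.12 log2, did not pass (adjusted p = 0.789). It was -0.18 ± 0.08 for Nr1d2, -0.42 ± 0.22 for Dbp, -0.50 ± 0.15 for Per2, 0.63 ± 0.18 for Klhdc7a and 0.20 ± 0.09 for Mmp14. For 1390223_at the 6 h values were 7.55, 7.94, 8.05, 8.13 and 8.20, against 8.09 to 8.63 at 1 h, a difference of -0.40 ± 0.13. With the run block these water differences were -0.35 ± 0.12 for Nr1d1, -0.13 ± 0.08 for Nr1d2, -0.33 ± 0.13 for Dbp, -0.34 ± 0.13 for Per2, 0.45 ± 0.16 for Klhdc7a, 0.19 ± 0.09 for Mmp14 and -0.33 ± 0.12 for 1390223_at. All kept their sign. The 2 low-correlation arrays among the 5 at 6 h are the whole of run 4, which holds 0 water arrays at 1 h, and 0 probe sets were called without them either.

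The difference between drinkers and water rats in the 6 h minus 1 h contrast was tested as an interaction, which limma called in 0 of 18625 cases (0%). An unadjusted p under 0.05 was reached by 586 (288 with the run block, which also called 0), and the smallest adjusted p was 0.853. For the named clock genes it was -0.11 ± 0.14 log2 in Nr1d1, -0.15 ± 0.10 in Nr1d2 and -0.11 ± 0.27 in Dbp. It was -0.20 ± 0.07 in Bhlhe41, -0.35 ± 0.16 in 1390223_at, -0.52 ± 0.25 in 1392613_at and -0.33 ± 0.14 in Lrig1, each with an adjusted p of 0.853. With the run block that of 1392613_at was -0.29 ± 0.23, that of 1380306_at was -0.32 ± 0.24, against -0.51 ± 0.25 without it, and those of Bhlhe41, 1390223_at and Lrig1 were -0.20 ± 0.06, -0.43 ± 0.15 and -0.26 ± 0.11. The smallest p values among named genes, none passing, were those of Klhl36, Dlst, a subunit of 2-oxoglutarate dehydrogenase, Sipa1l3 and Fen1, a nuclease of DNA replication (-0.42 ± 0.11, -0.47 ± 0.13, 0.57 ± 0.16 and -0.60 ± 0.17).

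The glucocorticoid list differed in its median between the rats, at -0.28 in drinkers and 0.00 in water rats, where 10 of 20 members were below 0. With the run block the medians lay closer, at -0.30 in drinkers and -0.13 in water rats, where 14 of 20 were below 0. Of all 18625 probe sets in water rats, 42.3% were below 0, and 37.3% with the block, so values in water rats leaned above 0. Klf15 was at -0.36 in drinkers and -0.01 in water rats. Gpd1 was at -0.72 in drinkers and 0.14 in water rats, and Nfkbia at -0.40 in drinkers and 0.04 in water rats. Their interactions were -0.35 ± 0.18, -0.85 ± 0.46 and -0.44 ± 0.22, each with an adjusted p of 0.853, so a difference from water rats was not shown for these genes. With the run block Klf15 was at -0.10 ± 0.15, Gpd1 at -0.14 ± 0.34 and Nfkbia at -0.14 ± 0.17 in water rats. Each was smaller than its SE, so the sign shared with drinkers is uncertain. Run 4 holds water rats at 6 h only, so the block adjusts these arrays in part by values of drinkers. The interactions with the block were -0.25 ± 0.18, -0.55 ± 0.42 and -0.22 ± 0.21. Sgk1 was at -0.73 in drinkers and -0.47 in water rats, and Fkbp5 at -0.26 in drinkers and -0.38 in water rats. The clock list had a median of -0.13 in drinkers and -0.15 in water rats, and with the run block -0.12 in drinkers and -0.04 in water rats. Other lists also lay off 0 in water rats: without the block, 12 of 14 CeA neuron markers were below 0 (median -0.36), and 12 of 12 oligodendrocyte markers (0.30), 11 of 11 endothelial markers (0.17) and 45 of 46 oxidative phosphorylation genes (0.15) were above 0. With the block these medians were -0.13, 0.08, 0.07 and 0.10. The median over all probe sets in water rats was 0.03 in either fit. Their part in the values of water rats was not tested.

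**Figure D4:**
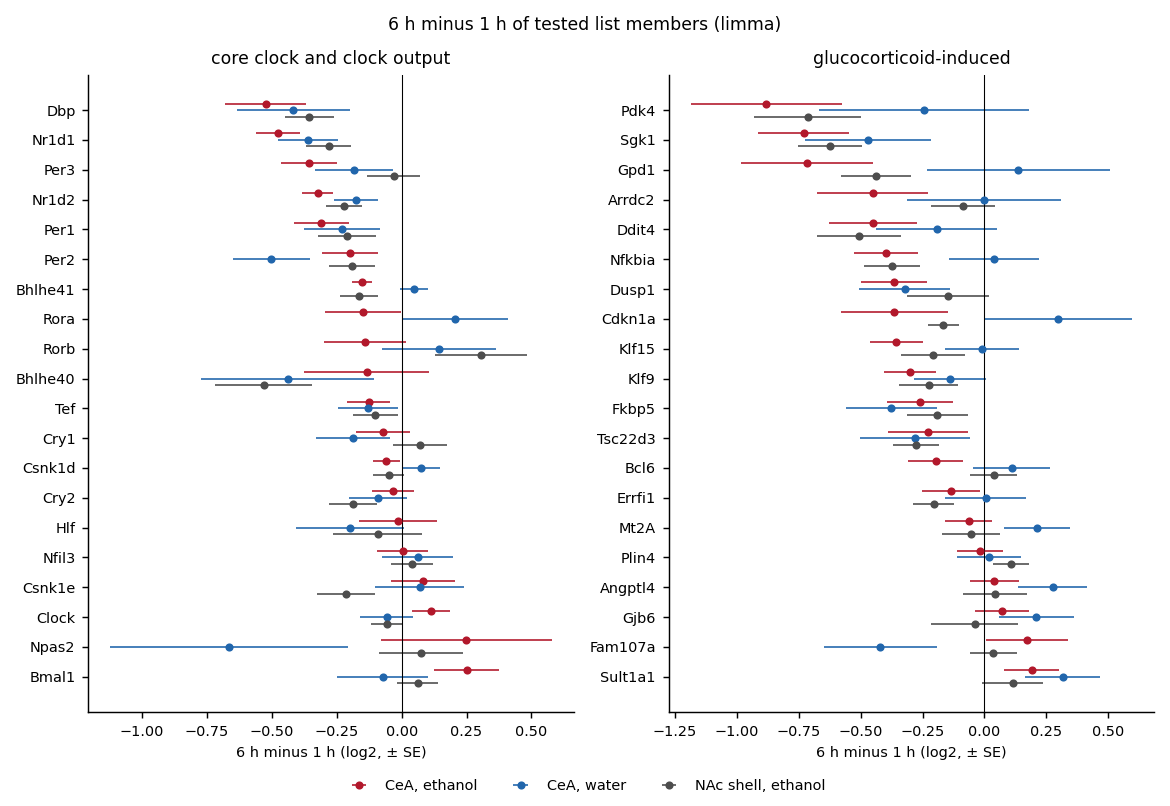
Difference of 6 h minus 1 h (log2, bars ± SE from limma) for each tested clock gene (left) and glucocorticoid-induced gene (right) in drinkers' CeA, water rats' CeA and drinkers' NAc shell. Nr1d1, Nr1d2, Dbp, Per1 and Per2 are below 0 in all 3, and the water bars are the widest for most genes.

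In the NAc shell of drinkers, a part of the ventral striatum, the same contrast called 2 of 18625 probe sets (0.0107%), both lower at 6 h. One was 1390223_at, at -0.44 ± 0.07 log2 (limma adjusted p = 0.00789), and it read 7.57, 7.90 and 8.04 at 6 h, against 8.05, 8.31 and 8.48 at 1 h. The arrays of the NAc shell thus did not overlap either for this probe set, though narrowly (8.04 against 8.05). How many other probe sets did not overlap there was not counted. Mmp14 was at 0.32 ± 0.06 there (adjusted p = 0.0501), Sgk1 at -0.62 ± 0.13 (0.0727), Nr1d1 at -0.28 ± 0.09, Nr1d2 at -0.22 ± 0.07 and Dbp at -0.36 ± 0.09. The labels do not say whether both regions came from the same rats. A test of the difference between regions by limma called 0 of 17572 (0%), where 135 had an unadjusted p under 0.05, and gave -0.19 ± 0.12 for Nr1d1, -0.31 ± 0.12 for 1390223_at and 0.04 ± 0.09 for Mmp14 (each with an adjusted p = 1.00).

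Most other gene lists had medians near 0 in drinkers. Immediate early genes, which respond to neuronal firing, had 14 of 20 tested members below 0 with a median of -0.09 log2, and the 1 with an unadjusted p under 0.05 was Klf4 (-0.26 ± 0.11). Fos was at -0.03 and Egr1 at -0.11. Chaperones of the endoplasmic reticulum had 14 of 19 above 0 with a median of 0.05, led by Hspa5, the main chaperone of that compartment (0.14 ± 0.05, unadjusted p = 0.0059), and Dnajb11 (0.09 ± 0.04). At an unadjusted p under 0.05, 2 of the 19 were higher and 0 lower, where 159 of all 18625 probe sets were higher. With the run block their median was 0.07, and 6 were higher and 0 lower, where 289 of 18625 were higher. In water rats 6 of the 19 were higher without the block, where 566 of 18625 were higher. With the block 5 of the 19 were, where 245 of 18625 were higher. Of cytosolic chaperones 12 of 18 were above 0, with Hspb1 at 0.27 ± 0.12 and the cold-inducible Rbm3 at -0.12 ± 0.09. Lists of the GABA system (median 0.00), glutamate receptors (-0.02), ion channels (0.01) and stress and opioid neuropeptides (0.03) lay close to 0, and their members included Tacr3, a tachykinin receptor, at 0.28 ± 0.11. No member of these lists passed.

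Markers of cell types other than CeA neurons were followed because bulk tissue cannot tell fewer cells of a type from less RNA per cell. Oligodendrocyte markers had 12 of 12 tested members below 0, with a median of -0.15 log2 and -0.08 with the run block, and 0 of them had an unadjusted p under 0.05. Their mean level ran from 11.2 to 12.8 at 6 h, against 11.4 to 12.7 at 1 h, and Cnp was at -0.27 ± 0.20 and Mag at -0.32 ± 0.28. In water rats the median of these markers was 0.30, and 0.08 with the block. Medians of the other lists were -0.02 for striatal neurons, 0.02 for astrocytes, -0.01 for microglia, -0.01 for endothelial cells and -0.06 for meningeal and choroid plexus cells. In the last, Slc6a20a was at 0.37 ± 0.11 (adjusted p = 1.00). The part of the oligodendrocyte shift in the values of Gpd1 and the other genes was not tested.

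**Figure D5:**
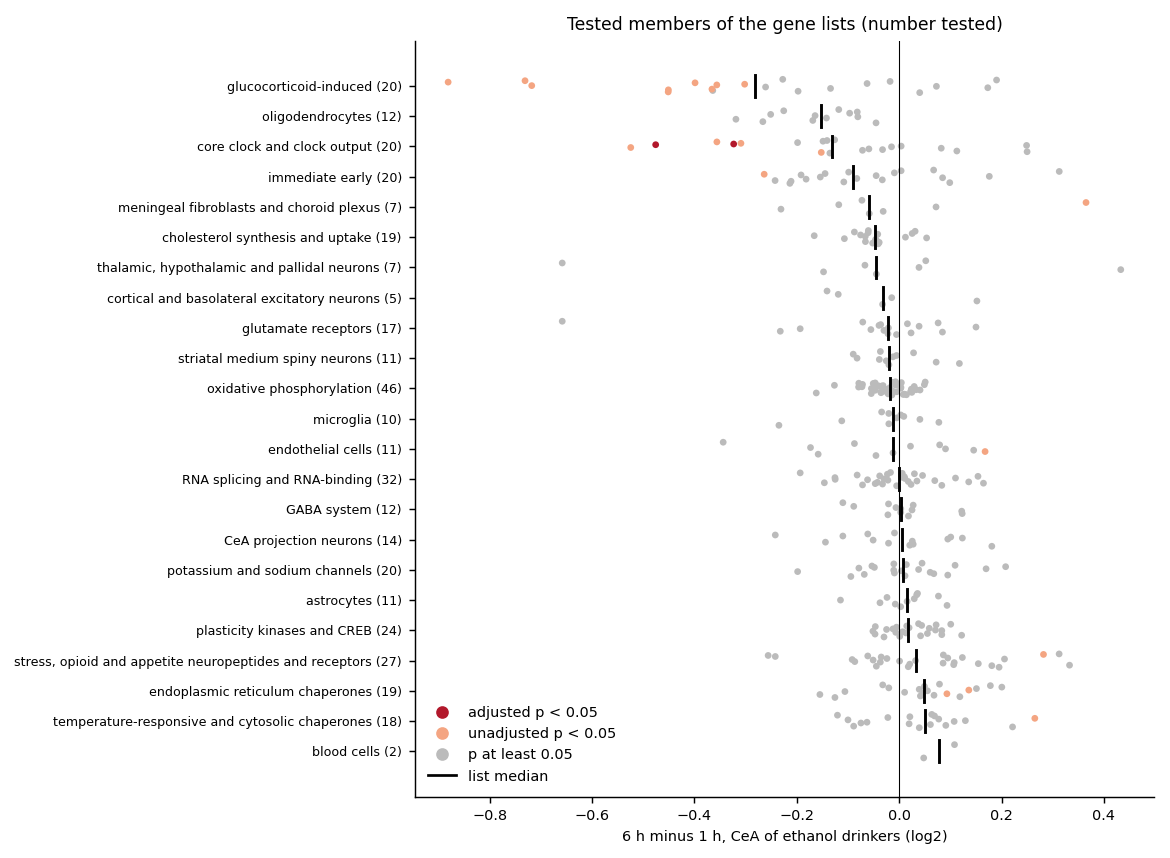
Difference of 6 h minus 1 h in drinkers' CeA (log2) for each tested member of the 23 gene lists, with the list median as a bar, and dots coloured by p value. The glucocorticoid-induced list has the lowest median (-0.28), followed by oligodendrocyte markers (-0.15) and the clock list (-0.13), which alone holds members past the adjusted threshold.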

How the data were processed

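The authors deposited log2 values for each array and probe set, made with RMA, per the submitters' processing notes; its version and the scan dates are not given in the sources used here. All 96 columns matched a labelled array. Of 31099 probe sets, 57 controls were left out; of the remaining 31042, 20826 had 1 symbol in the annotation, 436 several and 9780 were not listed, and 20758 symbols were looked up by Entrez ID. Probe sets with a mean above the 40th percentile of their region were tested (6.96 in the CeA, 18625 probe sets).

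Each region was fitted with limma 3.58.1 in R 4.3.3 on its 48 arrays, with a mean for each of 6 groups and a trend of variance on intensity. The fit was tested on simulated data. Alternatives were a block for runs of title numbers, the 21 arrays alone, runs or arrays left out, other filters, repeated quantile normalization, array weights and the Gapdh end difference as a covariate. Array quality was compared by two-sided permutation tests (100000 resamples). Precision is limited by the number of arrays.

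Genes named are, beside the members of the clock and glucocorticoid lists, those passing or with the smallest p values, 1 probe set per gene, and up to 4 members of other lists by smallest p, with a few marker levels added after values were seen. The members, the lists and this rule were chosen with earlier results of these data known.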

Additional observations from a re-analysis of the deposited data

Results flagged for a closer look

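For 30 probe sets, the highest and lowest arrays of 3 groups (drinkers at 6 h, water rats at 6 h, water rats at 1 h) were set against the rest of their group, 90 groups in all. In 6 of the 90 an array lay far from the others, where chance alone picks out about 1 in 20 groups. Among drinkers at 6 h, 1 array of run 4 read 9.87 for 1380306_at (nearest 9.37), and this is the low-correlation array of the drinkers at 6 h. Also among drinkers at 6 h, 1 array of run 1 read 8.71 for Per3 (nearest 9.02). Among water rats at 6 h, 1 array read 12.59 for Nr1d2 (nearest 12.40) and 1 array of run 4 read 10.62 for Klf15 (nearest 10.05), which is a low-correlation array as well. Among water rats at 1 h, 1 array read 10.73 for Dbp (nearest 9.99) and 1 array read 11.20 for Bcl6 (nearest 11.70). Drinkers at 1 h were not among the 3 groups. Their low-correlation array read 10.98 for 1380306_at (nearest 10.20).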

How the results depend on the processing

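The 6 probe sets called in drinkers' CeA became 12 with the run block, 12 with the 21 arrays alone and the run block, 12 without the low-correlation arrays and with the run block (added after the data were seen), 13 with the Gapdh end difference and the run block, 11 with array weights, 3 without run 4, 1 without run 2, 1 without run 3 and 2 with a filter at the 60th percentile. Fewer arrays or probe sets enter the last 4 of these. Fewer arrays also enter the fits of the 21 arrays alone and without low-correlation arrays, which called 12 each with the run block. The 1 probe set left without run 2 and without run 3 was 1390223_at. The 60th percentile filter left Mmp14, Nr1d1, 1390223_at and 1392613_at untested, and the 2 called there were Nr1d2 and 1380306_at. Nr1d1 did not pass without run 2, run 3 or run 4. The count was 6 or 7 when single arrays were left out (21 fits, each calling all 6), and 4 to 7 under the remaining alternatives. In the NAc shell the 2 calls became 7 at an adjusted p under 0.10 and 0 with the 60th percentile filter, with 1 to 4 when single arrays were left out. Counts for water rats, the interaction and the region difference stayed at 0 in every alternative run. The differences of drinkers followed in all fits (30 probe sets) kept their sign there, while within single runs Clock read -0.12 and Fkbp5 0.16 in run 1 and Arrdc2 0.07 in run 3. In water rats Gpd1 and Nfkbia turned from above to below 0 with the run block (-0.14 ± 0.34 and -0.14 ± 0.17). Bmal1 and Clock turned from below to above 0 in these rats (0.08 and 0.05 with the block). Medians ran from -0.15 to -0.08 for the clock list and from -0.34 to -0.24 for the glucocorticoid list over 17 settings. No paired analysis was possible because the 6 h and 1 h arrays share no title numbers. Probe sets near background, such as 1370540_at of Nr1d2, were not tested. The cause of these changes was not tested.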
